A study of Mus musculus with 2 samples.

Results

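The genomic elements described here are the rows of a STARR-seq table that lie within 10 kb of a start of a Hox gene. Membership was set by position alone: the midpoint of an element had to be at most 10 kb from a transcript start of a coding gene of the Hoxa, Hoxb, Hoxc or Hoxd cluster (GENCODE M21, mm10). Of 18431 elements in the table, 11 met this rule, around 83 annotated starts of 39 Hox genes. Hoxa (chromosome 6) held 2 of them, Hoxb (chromosome 11) 2, Hoxc (chromosome 15) 3 and Hoxd (chromosome 2) 4.

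In STARR-seq, DNA fragments are cloned into the transcribed part of a reporter plasmid, and the RNA copied from each fragment reports its activity away from its own chromosome. It was run by transient transfection in primary T-helper 2 cells of the mouse strain C57BL/6NJ, the helper T cells that make interleukin-4. Per the labels, the cells had been given anti-CD3e (0.25 ug/mL) and anti-CD28 (1 ug/mL) for 3 days, interleukin-2 and anti-interferon-gamma (2 ug/mL) for 4 days, besides interleukin-4. There is 1 group, of 2 output libraries. They are labelled as biological replicates but share a donor record, the labels do not say that they came from separate animals, and the input experiment is not analysed here.

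Hox genes encode homeodomain transcription factors that give cells their position along the head-to-tail axis. Their order on the chromosome follows the order in which they are used in the embryo, with paralog group 1 acting towards the head and group 13 towards the tail and the tips of the limbs. The clusters are dense in CpG islands and are a textbook target of Polycomb repression in cells that do not use them, while early blood progenitors use several Hoxa and Hoxb genes. Hox genes are described as silent in T cells, but the table has no expression values, so neither that nor the T-cell identity was checked against marker genes.

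The table gives 1 signed log fold, 1 p-value and 1 q-value per element, made by the authors from both libraries together. Values below are the authors' deposited table values. No value per library was given, so no spread between the libraries can be shown. The fold is read as base 2 and as RNA output over input DNA, which the sources used here do not state. An element with a fold above 0 is called positive and one below 0 negative. The table ends at a q-value of 0.01, and its pairs of p and q imply 114722 tested regions, of which 16.1% were kept. Which regions those were is not known here, so a Hox start without an element may have been inactive or may not have been covered. No test was run over the elements, which are not replicates. Intervals are exact 95% binomial intervals for counting error only.

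The sequences of 5 elements are printed to show negative elements beside positive ones. The first 3 are those with the lowest q-value in Hoxa, Hoxb and Hoxd. The last 2 were added after their values were seen, as the only elements under 200 bp wide. These 2 are also the positive elements of lowest GC content, so the other 4 positive elements, of 52.8% to 59.9% GC, lie nearer to the negative ones. Each is printed 5′ to 3′ on the strand of its Hox genes, as the longest stretch outside annotated UTRs and at most 300 bases, with every CpG in capitals (mm10).

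Hoxa13, negative, chr6:52260881-52261000, minus strand, with 21 CpGs and a GC content of 85%: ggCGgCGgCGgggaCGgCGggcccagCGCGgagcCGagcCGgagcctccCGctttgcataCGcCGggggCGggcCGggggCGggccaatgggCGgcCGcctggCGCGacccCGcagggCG

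Hoxb9, negative, chr11:96271663-96271962, plus strand, with 36 CpGs and a GC content of 73.7%: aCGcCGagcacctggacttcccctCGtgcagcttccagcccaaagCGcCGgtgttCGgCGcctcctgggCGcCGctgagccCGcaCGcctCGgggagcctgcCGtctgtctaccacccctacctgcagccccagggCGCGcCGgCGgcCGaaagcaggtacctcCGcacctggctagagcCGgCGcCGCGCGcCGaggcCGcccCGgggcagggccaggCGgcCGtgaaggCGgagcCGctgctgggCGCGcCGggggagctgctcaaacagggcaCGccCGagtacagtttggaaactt

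Hoxd3 start, negative, chr2:74712317-74712350, plus strand, the 34 bases that are not UTR, with 2 CpGs and a GC content of 70.6%: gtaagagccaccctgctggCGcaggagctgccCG

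Hoxc10 coding element, positive, chr15:102970926-102971000, plus strand, the whole element of 75 bp with 4 CpGs and a GC content of 45.3%: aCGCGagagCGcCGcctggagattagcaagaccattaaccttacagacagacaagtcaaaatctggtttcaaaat

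Hoxd4 upstream element, positive, chr2:74724701-74724850, plus strand, the whole element of 150 bp with 2 CpGs and a GC content of 41.3%: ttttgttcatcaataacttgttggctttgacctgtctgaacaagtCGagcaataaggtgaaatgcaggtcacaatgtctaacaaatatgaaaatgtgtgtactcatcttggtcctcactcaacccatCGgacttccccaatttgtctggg

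Direction followed base composition without overlap. The 5 negative elements had GC contents from 71.3% to 78.7%, and the 6 positive ones from 41.3% to 59.9%, so no Hox element lay between these ranges. Negative elements made up 45.5% of the set (5 of 11, interval 16.7 to 76.6), beside 28.5% of the whole table, and positive elements 54.5%, beside 71.5%. By position, 8 of the 11 Hox elements were promoter elements, with a midpoint within 1 kb of a start, against 32.9% of all elements. Among the Hox promoter elements 5 of 8 were negative (62.5%, interval 24.5 to 91.5), and among all promoter elements 65.6% were. The 3 Hox elements outside promoters were all positive, as were 89.7% of all such elements.

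The same split by GC content was present in the whole table. At a GC content of 65% or more, 92.4% of all 3245 elements and 93.6% of the promoter elements were negative, and 5 of 5 Hox elements were. From 55% to under 60%, 25.5% of all elements were negative and 0 of 3 Hox elements. Below 55% the table held 7.27%, 7.36% and 10.6% negative elements in its 3 classes, and each class held 1 Hox element, a positive one. The ratio of observed to expected CpG had a median of 0.930 in the negative Hox elements (range 0.756 to 1.09) and of 0.600 in the positive ones (0.313 to 1.04), against 0.787 and 0.231 in the whole table. These are descriptions of 11 elements, and nothing particular to Hox genes follows from them.

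**Figure D1:**
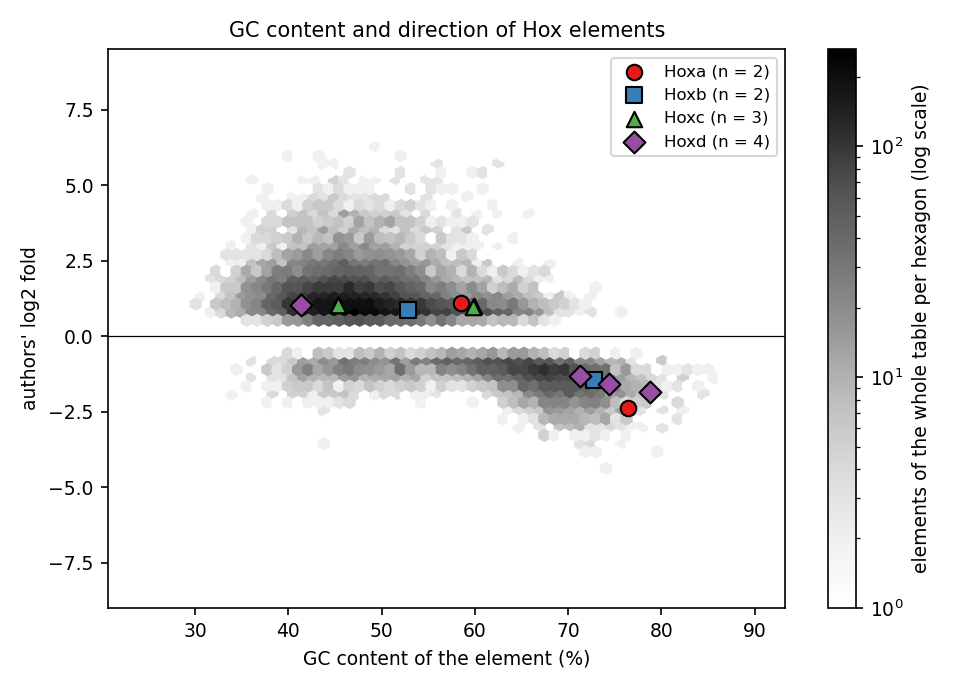
GC content of each element (x axis, percent) against the authors' log2 fold (y axis); grey hexagons count the elements of the whole table on a log scale and coloured symbols are the 11 Hox elements by cluster. The 5 negative Hox elements sit between 71.3% and 78.7% GC and the 6 positive ones at 59.9% or below.

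The folds were modest in the positive direction. Positive Hox elements had log2 folds from 0.86 to 1.11 (median 1.01), and each was below the median of 1.20 of all positive elements. Negative Hox elements ranged from -2.38 to -1.31 (median -1.59), and each was more extreme than the median of -1.23 of all negative elements. Among promoter elements alone, the positive medians were close, 1.00 for Hox and 1.02 for all. The negative medians there were -1.59 for Hox and -1.28 for all. Support in the table was weak for most Hox elements: 3 of 11 (27.3%) had a q-value below 0.001, against 60.7% of all elements. An absolute log2 fold of at least 1 was reached by 3 of 6 positive and 5 of 5 negative Hox elements, against 65% and 70.7% of all elements in those directions. A further positive element, at the Hoxc10 start, missed this threshold only narrowly, with a log2 fold of 0.9998.

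The Hoxa cluster had its elements at the limb-end genes. The strongest Hox element of the table lay on the start of Hoxa13, which patterns the digits and the genital tubercle (chromosome 6, 52260726 to 52261000, 275 bp). Its log2 fold was -2.38, a 5.20-fold lower RNA output if the base is 2, with a q-value of 5.98e-05 in the authors' deposited table. It was more extreme than 93.7% of all negative elements. The midpoint was 17 bp past the start, in the 5′ UTR, and the GC content of 76.4% was the second highest of the set.

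The neighbour at Hoxa11, a gene of the forearm, kidney and uterus, went the other way. This element (52245726 to 52246775, 1050 bp) was the widest of the 11 and had a log2 fold of 1.11 with a q-value of 0.00161, the largest positive fold of the set. Its midpoint lay 440.5 bp before the Hoxa11 start and 29.5 bp from a start of Hoxa11os, the antisense RNA of this locus, in an exon of that RNA. Its GC content was 58.5%. No element was found at the other 9 Hoxa genes within 1 kb, and a stretch of 175 kb without any element (52071076 to 52245725) held starts of 9 Hoxa genes, among them Hoxa4, Hoxa5, Hoxa7, Hoxa9 and Hoxa10. The median distance between neighbouring elements of the table was 45.2 kb. That median is not a like measure, because the stretch was picked as the longest one at the cluster. Part of the stretch also lies beyond the end of the cluster. Over the merged 10 kb windows, Hoxa had 1.63 elements per 100 kb, against 1.69 around all protein-coding genes.

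In the Hoxb cluster the negative element lay wholly in the coding sequence of Hoxb9, a gene of the thoracic segments (chromosome 11, 96271626 to 96272000, 375 bp). Its midpoint was 290 bp past the start, its log2 fold -1.46 with a q-value of 0.000401, and its GC content 72.8%. The positive element (96311201 to 96312025, 825 bp) lay between Hoxb5 and Hoxb4, outside any annotated gene and 6654 bp before the start of Hoxb4, a gene known for expanding blood stem cells. It had the smallest fold of the set, a log2 fold of 0.86 with a q-value of 0.00498, and a GC content of 52.8%. It was also the Hox element farthest from a start. A stretch of 143 kb without an element followed it and held starts of Hoxb4, Hoxb3, Hoxb2 and Hoxb1.

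The Hoxc cluster had positive elements only, 3 of 3 (the interval allows a share of negative elements of up to 70.8%), and all lay at Hoxc10 and Hoxc9. The first (chromosome 15, 102966501 to 102967250, 750 bp) covered the start of Hoxc10, a gene of the lumbar region and the hindlimb motor neurons. Its midpoint was 79.5 bp past the start in coding sequence, its log2 fold 1.00 with a q-value of 0.000588 and its GC content 59.9%. A start of a long upstream transcript of Hoxc5 lay 567.5 bp from the same midpoint. The element at Hoxc9, which sets the identity of thoracic motor neurons (102976976 to 102977425, 450 bp), had a log2 fold of 0.95, a q-value of 0.00196 and a GC content of 59.8%, with its midpoint in an intron 168.5 bp past the start.

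The remaining Hoxc element was the narrowest of the set, 75 bp in the coding sequence of Hoxc10 (102970926 to 102971000), with a log2 fold of 1.02 and a q-value of 0.00145. It is the whole sequence printed above and belongs to the homeobox, the part of the gene that encodes the DNA-binding homeodomain. Homeobox sequence is shared between paralogs. The element matched coding sequence of Hoxa10 at 80% identity over 75 bases and of Hoxd10 at 82.4% over 74 bases, and a 38-base stretch of Hoxd9 at 92.1%. None of these paralogous sites held an element. The handling of reads that fit several paralogs is not stated.

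The Hoxd cluster had the most elements, 3 negative and 1 positive. The negative element at Hoxd8, a trunk gene (chromosome 2, 74705426 to 74705900, 475 bp), had the second most extreme fold of the set, a log2 of -1.84 with a q-value of 0.00359, and the highest GC content, 78.7%. Its midpoint was in coding sequence 511 bp past the start. The element at the upstream start shared by Hoxd3 and a non-coding Hoxd4 transcript (74712076 to 74712350, 275 bp) had a log2 fold of -1.31, a q-value of 0.00133 and a GC content of 71.3%. Hoxd3 and Hoxd4 shape the neck vertebrae, and the antisense RNA Hoxd3os1 has a start 159 bp from this midpoint. At Hoxd1, a gene of pain-sensing neurons (74762801 to 74763400, 600 bp), the log2 fold was -1.59 with a q-value of 0.00186 and the GC content 74.3%. The start of the long non-coding RNA Haglr lay 204.5 bp from that midpoint.

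The positive Hoxd element (74724701 to 74724850, 150 bp) lay in an intron of long Hoxd3 and Hoxd4 transcripts, 2298.5 bp before the nearest start of Hoxd4 and 1294.5 bp from Mir10b, a microRNA of the cluster. It had a log2 fold of 1.02, the highest q-value of the set, 0.00856, and the lowest GC content, 41.3%. The element has the letters AGGTGAAATGCAGGTCA at 74724755 to 74724771, a direct repeat of 2 retinoic acid receptor core sites with 5 bases between them (DR5). A response element of this kind upstream of Hoxd4 is known as background from work on retinoic acid in the hindbrain. The repeat was searched after the sequence was seen. It was in 1 of 11 Hox elements searched over their whole length. For all elements only the central 200 bp were searched, with a match in 0.353%, so the 2 shares are not of the same measure. A stretch of 90 bases also matched a site in the Hoxc4 gene at 78.9% identity, where no element was found.

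**Figure D2:**
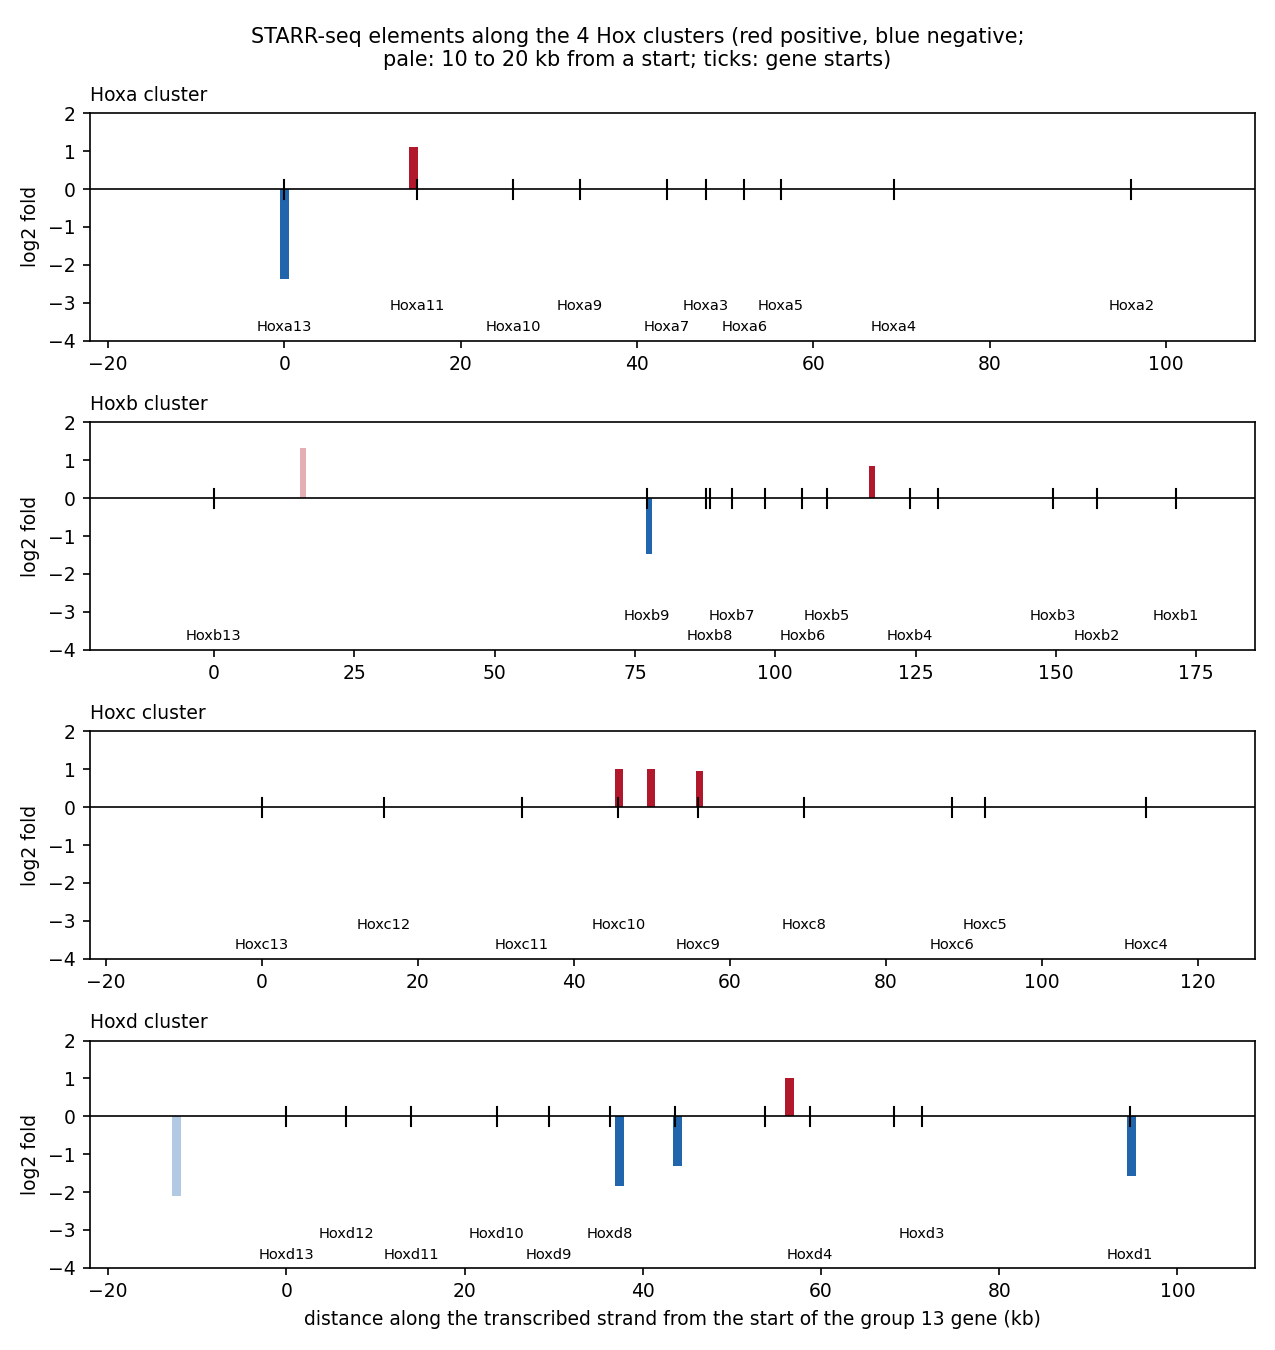
Elements along each cluster, in kb along the transcribed strand from the start of the group 13 gene (x axis), with bar height the authors' log2 fold (y axis; red positive, blue negative; bars drawn wider than scale where narrow) and black ticks the starts of principal transcripts of the genes shown, with each name at the last such start. The 11 elements within 10 kb are in full colour and the 2 at 10 to 20 kb are pale; Hoxc has positive bars only and Hoxd has 3 of 4 negative.

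The distance of 10 kb did not divide a crowd of elements. The farthest element inside was the one 6654 bp before Hoxb4. Just outside lay a negative element 12297 bp from Hoxd13 (log2 fold -2.10, GC content 72%), which was nearer to the homeobox gene Evx2, and a positive one 15909.5 bp from Hoxb13 (log2 fold 1.32, GC content 44.7%). Both sat on the same sides of the GC split as the elements inside.

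Seen from the genes, the share of Hox genes with an element within 1 kb or 10 kb was near the background. Within 1 kb of a start, 10 of 39 Hox genes had an element (25.6%, interval 13 to 42.1), beside 26.4% of all 21938 protein-coding genes. A negative element was at 6 of 39 (15.4%, against 17.5%) and a positive one at 4 of 39 (10.3%, against 9.85%). Within 10 kb, 14 of 39 had an element (35.9%, against 40.4%). These shares moved with the settings: within 20 kb they were 64.1% of Hox genes and 50.7% of all genes, and with a q-value below 0.001 within 10 kb an element was at 5 of 39 Hox genes and at 5793 of 21938 genes. Hoxc10 and Hoxc5, and Hoxd3 and Hoxd4, shared elements, which is why 8 promoter elements served 10 genes. The most elements within 10 kb, 3 each, were at Hoxc5, Hoxc9, Hoxd3 and Hoxd4, which tie. Over the merged 10 kb windows there were 2.18 elements per 100 kb (11 in 505 kb) against 1.69 around all protein-coding genes, with 1.63 for Hoxa, 1.48 for Hoxb, 2.25 for Hoxc and 3.49 for Hoxd.

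Of the 25 genes with no element within 10 kb, 8 were in the Hoxa cluster, among them Hoxa4, Hoxa5, Hoxa7 and Hoxa9, and 7 in the Hoxb cluster (Hoxb1, Hoxb2, Hoxb3, Hoxb6, Hoxb7, Hoxb8 and Hoxb13). In the other clusters they were Hoxc4, Hoxc6, Hoxc8, Hoxc11, Hoxc12 and Hoxc13, and Hoxd10, Hoxd11, Hoxd12 and Hoxd13. Their nearest element was 23340 bp away in the median. By axial position, 2 of 8 genes of paralog groups 1 to 3 had an element within 1 kb (both negative), 3 of 15 of groups 4 to 8 (1 positive, 2 negative) and 5 of 16 of groups 9 to 13 (3 positive, 2 negative). Group 9 was the only paralog group with elements within 1 kb of more than 1 gene, and there Hoxb9 was negative and Hoxc9 positive, while Hoxa9 and Hoxd9 had none.

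The GC content of principal promoters overlapped between Hox genes with and without an element. It was taken at the starts of principal transcripts, whereas an element could lie at any start. For Hoxc5 (49.0%), Hoxd4 (49.3%) and Hoxd3 (54.5%) the principal starts are wholly or partly elsewhere than the element. Their values therefore do not describe the start that had the element. The 1 kb around the principal start had a median GC content of 58.4% in the 10 Hox genes with an element within 1 kb (range 49.0 to 73.8). It was 55.5% in the 29 without (46.6 to 73.7). These ranges overlap, but the low end of the first is the value of Hoxc5. Hoxa4 (73.7%), Hoxd13 (72.4%) and Hoxd11 (70.3%) had promoters of over 70% GC, as did Hoxa13 (73.8%), and no element within 10 kb. Among genes with a promoter GC content of 60% or more, 4 of 13 Hox genes had an element within 1 kb (30.8%, interval 9.09 to 61.4), all negative, against 49.4% of 6563 protein-coding genes. Below 60%, the shares were 6 of 26 (23.1%, interval 8.97 to 43.6) and 16.5%, and the 6 include Hoxc5, Hoxd3 and Hoxd4. Both Hox intervals include the shares of all genes.

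**Figure D3:**
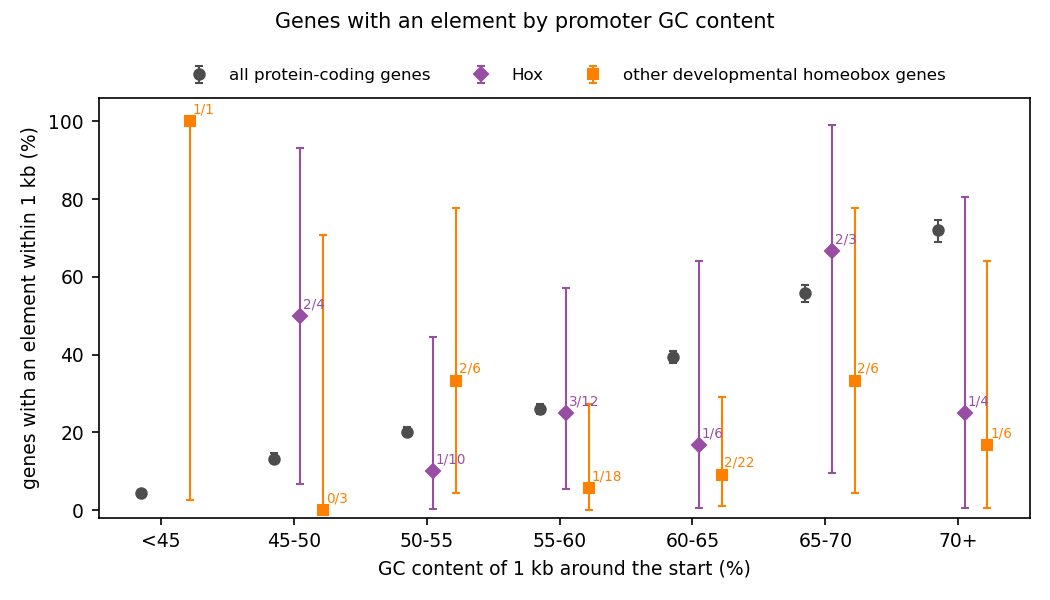
Share of genes with an element within 1 kb of any start (y axis, percent) by GC content of the 1 kb around the principal starts (x axis, percent), for all protein-coding genes, Hox genes and other developmental homeobox genes. Bars are exact 95% binomial intervals and labels give the counts. A gene's element can lie at another start than the principal ones. The share rises with GC content from 4.43% to 72.0% in all genes, and the Hox intervals are wide, at 1 of 4 in the highest class.

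Many Hox elements lay in coding sequence. The midpoint lay in a coding exon in 4 of 11 (36.4%; Hoxb9, Hoxd8 and both Hoxc10 elements) against 5.33% of all elements, and in a UTR in 3 (Hoxa13, Hoxd1 and Hoxd3) against 11.8%. All 5 negative Hox elements had a midpoint downstream of the nearest start in an exon, 2 in coding sequence and 3 in a UTR. Among all negative promoter elements 56.6% lay downstream of the start, 13.9% in coding sequence and 35.8% in a UTR. Among all positive promoter elements 10.5% lay in coding sequence and 26.2% in a UTR. Since most Hox elements were promoter elements, these shares are a closer comparison than those of all elements. The 6 positive Hox elements were in coding sequence (2), introns (2), an antisense RNA exon and intergenic sequence. The share of repeat-masked bases was at most 10.9% in each Hox element, with a median of 0%, against a median of 8% in the table. Hox elements were 75 to 1050 bp wide (median 450 bp), and the negative ones had a median width of 375 bp against 750 bp for all negative elements.

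Short consensus letters were searched on both strands in the 200 bp around the midpoint of each element, a window that runs past the edges of the 2 narrowest ones. The labels give a size range of 200 to 400. If that is the fragment length in bp, the tested fragments also held bases beyond these 2 elements. Of 20 motifs, 9 were found in at least 1 Hox element. The SP/KLF letters GGGCGG were the most frequent, in 7 of 11 Hox elements, including all 5 negative ones and 2 of 6 positive ones. They were in 53.5% of all negative, 10.1% of all positive and 53.9% of promoter elements. The T-cell activation motif AP-1 (TGANTCA) was in 1 of 11, against 23.2% of all elements and 5.44% of promoter elements, and it was in a positive element. Over the whole length of the elements AP-1 letters were in 3 of 11, all positive (at Hoxb4, Hoxc10 and Hoxc9), against 34.4% of all elements. The ISRE of interferon regulatory factors (GAAANNGAA) was in 2 of 11, both positive, against 10.9% of all elements and 4.81% of promoter elements. That of the Hoxc10 coding element lay outside its 75 bp. Letters of STAT (TTCNNNGAA), GATA factors (AGATAA), NF-kB (GGGANTTCC) and RUNX (TGTGGTT) were in 0 of 11. They were in 10.7%, 7.36%, 1.37% and 7.05% of all elements, and in 3.77%, 2.13%, 1.17% and 2.28% of promoter elements. Over the whole length of the elements they were also in 0 of 11, against 19.8%, 16.8%, 3.12% and 13.9% of all elements. Letters of widely expressed factors that were also in none of the central windows were found there in 1.17% of all elements for ETS (CCGGAAGT), 4.37% for YY1 (AANATGGC), 1.54% for CRE-binding factors (TGACGTCA) and 3.33% for E-box factors (CACGTG). Among promoter elements these shares were 2.71%, 5.14%, 1.69% and 4.92%. Over whole elements, E-box letters were in 2 of 11 Hox elements (at Hoxb4 and Hoxd1), against 9.66% of all elements. YY1 and CRE letters were in 1 each (both at the Hoxc10 start), against 9.93% and 2.76%, and ETS letters in 0, against 2.82%.

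Letters bound by Hox proteins and their partners were searched in the same windows. HOX-PBX (TGATTNAT), posterior HOX and CDX (TTTATNG) and the homeodomain core (TAATNA) were in 0 of 11, against 3.95%, 5.15% and 16.1% of all elements and 0.777%, 2.20% and 5.54% of promoter elements. MEIS/TGIF letters (TGACAG) were in 2 of 11, the negative Hoxa13 and Hoxd8 elements, against 15.6% of all elements and 10.0% of promoter elements. The core site of retinoic acid receptors (AGGTCA) and NFY letters (CCAAT) were in 3 each, against 13.3% and 20.4%, and in both cases the match at the Hoxc10 coding element lay outside its 75 bp. NRF1 (GCGCNTGCG), NFAT (TGGAAAA) and GAGA repeat (GAGAGAGA) letters were in 1 each, against 2.24%, 4.20% and 2.63%. Over the whole length of the elements, HOX-PBX letters were in 1 of 11, against 6.86% of all elements. That was the element between Hoxb5 and Hoxb4, where the HOX-PBX letters share bases with its AP-1 letters. Homeodomain core letters were in 3, against 33.0%, and posterior HOX and CDX letters in 0, against 13.3%. A match is a description of letters, and its absence says only that they are not in that window.

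Genes that act with or on Hox proteins were set beside them from fixed lists, against the shares of all protein-coding genes within 1 kb: 26.4% with any element, 17.5% with a negative and 9.85% with a positive one. TALE cofactors, the homeodomain partners of Hox proteins, had an element within 1 kb at 3 of 9 genes, all negative, led by Pknox1 (log2 fold -3.66). Polycomb subunits, which keep Hox genes silent, had negative elements at 14 of 25 genes and positive ones at 2, led by Phc1 (-3.66) and Kdm2b (1.70). Of these 25 genes, 18 had a promoter GC content of 60% or more. There 10 of 18 had an element (55.6%, interval 30.8 to 78.5), 9 of them a negative one, against 49.4% of all genes. Below 60%, 5 of 7 had one (71.4%, interval 29.0 to 96.3), each of the 5 a negative one, against 16.5%. The role of GC content in the Polycomb share was not tested. The MLL complex and other Hox activators had elements at 3 of 10, led by Psip1 (-3.06) and Dot1l (1.55). The ParaHox, Evx and other Hox relatives had them at 3 of 11, with Gsx1 at -1.32 and Evx1, the homeobox gene beyond Hoxa13, at 2.32. The fold of the Evx1 element was larger than that of any positive Hox element.

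Other developmental homeobox genes, such as the Dlx, Irx, Lhx and Nkx genes, had an element within 1 kb at 9 of 62 (14.5%, interval 6.86 to 25.8), against 26.4% of all genes. All 9 had a negative element, the most extreme at En1 (-1.89), and 1 also had a positive one. Their promoters had a median GC content of 60.1%, against 56.8% in Hox genes. At a promoter GC content of 60% or more the share was 5 of 34 (14.7%, interval 4.95 to 31.1), beside 4 of 13 in Hox genes and 49.4% in all genes. Below 60% it was 4 of 28 (14.3%, interval 4.03 to 32.7), beside 16.5% in all genes. These differences were not tested, and neighbouring genes share elements.

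**Figure D4:**
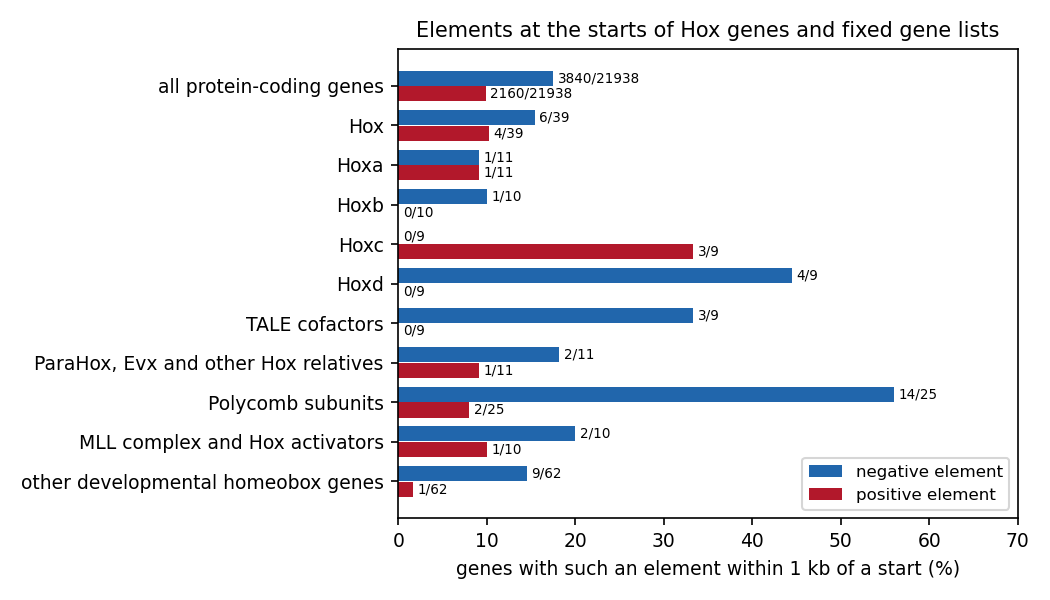
Share of genes with a negative (blue) or positive (red) element within 1 kb of a start (x axis, percent), for all protein-coding genes, Hox genes, the 4 clusters and the fixed lists, with counts beside the bars. Negative elements were at 4 of 9 Hoxd genes and positive ones at 3 of 9 Hoxc genes, while Hoxa and Hoxb had at most 1 gene in either direction. The counts are of genes: Hoxd3 and Hoxd4 share an element, as do Hoxc10 and Hoxc5.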

How the data were processed

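The labels give 2 STARR-seq output libraries from 1 group of activated T-helper 2 cells, with a starting quantity of 30 ug and a size range of 200 to 400. Per the deposited lists of files, the authors made 1 element table from the alignments of both libraries on mm10. The deposited table has no header. Its signed log fold is taken as log2, with base and reference unstated, and the authors' p-value and q-value stand on a linear scale. Aligner, element caller, test and versions are not stated in the sources. Since no counts are in it, depth and the precision of a single element are unknown.

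Of the elements, 18414 lay on assembled chromosomes and 17 on other scaffolds, and shares of all elements by GC content, position or motif are over the former. Membership, distances, GC content and motifs were computed in Python 3.11.15 with pandas 2.3.3, pysam 0.24.0 and scipy 1.17.1, from GRCm38 p6 and GENCODE M21. Starts are those of all transcripts of a gene. The promoter GC content is over 1000 bp around the starts of principal transcripts. The number of regions is the median of q times rank over p, which 81.8% of elements matched to a relative tolerance of 1e-06. Similar sequences elsewhere in the genome were found with BLAST. Window and motif routines were tested on simulated data. Members, the 5 gene lists and the motifs were chosen with earlier results of these data known. Named in the text are all members, Hox genes without an element, those with the most elements, and per list the largest fold in each direction within 1 kb; a few items that these rules select are not reported here. Sequences are from the RefSeq GRCm38 genome.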

Additional observations from a re-analysis of the deposited data

How the results depend on the processing

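Across 49 recomputed values, 41 kept their direction or stayed within the main value's interval (within 1.5 times for counts), among them those of the split by GC content, most of which could not move. The median log2 fold of the Hox elements, 0.86 with an exact interval for the median of -1.84 to 1.02, had no stable sign, because the set holds 6 positive and 5 negative elements. It was -0.18 with a 5 kb window, -0.23 with only the 5′ end of each gene record, -1.46 at a q-value below 0.001 and -1.39 among elements whose log2 fold was 1 or more in size. The number of elements fell to 3 at a q-value below 0.001. The share of Hox genes with an element was 64.1% with a 20 kb window (50.7% of all genes) and 12.8% at a q-value below 0.001 (5793 of 21938 genes). Matches summed over the 20 motifs were 21 in the central 200 bp and 34 over whole elements, which are mostly longer. The split by GC content at 65%, recomputed after seeing the data, could break only under the 20 kb window, which added 1 negative element of 72% GC and 1 positive one of 44.7%; the other settings added no element. No paired analysis was possible because the table pools both libraries of the only group, and for the same reason no library could be left out. Depth could not be judged.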

Other observations

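The first elements beyond the head-ward end of the Hoxb cluster have the start of Skap1 as their nearest coding start, an observation made after the values were seen; distance alone links them to that gene. Skap1, an adaptor protein of T-cell receptor signalling and adhesion, lies next to Hoxb1. Its start held a negative element (chromosome 11, 96464101 to 96464850, log2 fold -0.79, GC content 60.9%, midpoint 117.5 bp from the start), and positive elements lay 5580 bp (log2 fold 0.89) and 9267.5 bp (0.69) from it. Between these elements and the first Hoxb element no element was found, over 143 kb. Beyond Hoxa13, Evx1 had a positive element at its promoter (log2 fold 2.32, q-value 1.10e-08) and a negative one 3248.5 bp from its start (log2 fold -1.04, GC content 75%).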
